A study of Homo sapiens with 12 samples.

Results

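The genes described here were CDH5, the classical cadherins that carry adhesion in epithelia and in mesenchyme or nerve (CDH1, CDH2, CDH3, CDH4 and CDH11) and the catenins that bind them (CTNNA1, CTNNB1 and CTNND1). They were taken by gene symbol, 9 of the 26485 genes in the count table. The RNA came from spheroids of DU145, a prostate cancer cell line in long use, in 3 engineered forms. DU145KO carries a Crispr/Cas9 knock-out of ITGA2, the gene of the α2 integrin subunit, which pairs with β1 to form a collagen receptor. DU145KO+α2 is DU145KO stably transfected with α2 integrin cDNA in the pAWneo2 vector, and DU145KO+vector is DU145KO stably transfected with the empty vector, so all 12 samples (4 of each line) carry the knock-out and unedited DU145 was not analysed here. The edited cells had been selected by GFP and cells that kept surface α2 integrin had been removed by sorting; whether any line grew from 1 clone is not given in the sources used here. The transfected lines were kept in geneticin, and spheroids of 8000 cells were grown for 72 hours without serum before RNA extraction.

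Classical cadherins are transmembrane proteins that join neighbouring cells in adherens junctions by binding cadherins of the same kind on the next cell. Inside the cell p120 catenin (CTNND1) holds the cadherin at the membrane, β-catenin (CTNNB1) binds its tail, and α-catenin (CTNNA1) connects the complex to actin. β-catenin that is not bound to cadherin also acts in Wnt signalling as a transcriptional coactivator. Epithelial cells of the prostate carry E-cadherin (CDH1) and, in the basal layer, P-cadherin (CDH3), whereas VE-cadherin (CDH5) is the cadherin of endothelial adherens junctions.

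Gene counts summed to 13948734 in the smallest library and 19988111 in the largest, and 14732 genes had enough reads to be tested. Changes are given as log2 fold change with its standard error (SE) from edgeR's quasi-likelihood test, and a gene was called at an adjusted p (Benjamini-Hochberg, over all genes tested) below 0.05. Levels of single genes are given in CPM (reads of the gene scaled to library size and TMM factor), and levels are compared between genes in RPKM, which also divides by gene length. A count of 0 allows up to 3 reads, which is 0.150 to 0.215 CPM depending on the sample, and this limit covers counting error only. ITGA2 itself was measured at 305 ± 33.5 CPM (SD, n = 4) in DU145KO+α2 against 17.6 ± 3.15 in DU145KO+vector (log2 fold change 4.11, adjusted p = 3.15e-09) and 20.7 ± 4.16 in DU145KO, which is the direction of the labels. Epithelial markers were present in all 12 samples, with a summed level of 7 genes between 1030 and 1830 CPM. Among prostate lineage markers, KLK3 had no read, HOXB13 had at most 1 read in any sample and TMPRSS2 at most 13.

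CDH5 was higher in every α2 positive sample than in any α2 negative one, low in DU145KO and at the limit of detection in DU145KO+vector. In DU145KO+α2 it was measured at 10.6, 8.995, 12.2 and 7.83 CPM in replicates 1 to 4, from 171, 180, 206 and 123 reads. In DU145KO it was measured at 1.39, 1.16, 1.29 and 1.23 CPM, from 21, 19, 21 and 21 reads. In DU145KO+vector it was counted with 3, 0, 3 and 4 reads. The 3 lines did not overlap, and the order was DU145KO+α2, DU145KO and DU145KO+vector, where 3 of the 4 libraries were at or below the 3 reads that a count of 0 allows. In bulk samples, fewer cells with a transcript and less of it per cell cannot be told apart.

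CDH5 rose in DU145KO+α2 compared to DU145KO+vector by a log2 fold change of 5.92 (SE 0.31, adjusted p = 1.34e-08) and compared to DU145KO by 2.96 (SE 0.22, adjusted p = 9.57e-07). Against DU145KO+vector the fitted fold rests on 10 reads, so the pooled counts were also compared: 680 reads against 10 gave a 63.2-fold higher level (95% exact interval 34.1 to 132), and 680 against 82 reads in DU145KO gave a 7.82-fold higher level (6.21 to 9.96). These intervals cover counting error only. CDH5 also separated the α2 negative lines: it fell in DU145KO+vector compared to DU145KO (log2 fold change −2.96, SE 0.39, adjusted p = 0.000675), which in pooled counts was an 8.08-fold lower level (4.18 to 17.5). The contrast with DU145KO+vector and the contrast between the α2 negative lines share the DU145KO+vector samples. The log2 fold changes ranged from 5.57 to 6.27, from 2.86 to 3.06 and from −3.31 to −2.61 when 1 sample was left out in turn.

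Enough reads for a test were present for 6 of the 9 genes. In DU145KO+α2 compared to DU145KO+vector 3 were called, CDH5 higher and CDH1 and CDH3 lower, where 11.9% of all genes tested were called. Compared to DU145KO the called genes were the same 3 in the same directions, where 8.17% of all genes were called. In DU145KO+vector compared to DU145KO 1 was called, CDH5, where 2.34% of all genes were called. When a fold change above 2 was also required, the numbers were 1 (CDH5), 2 (CDH5 and CDH1) and 1 (CDH5), where 2.21%, 2.1% and 0.835% of all genes met both conditions. With the replicate number as a block they were 2, 4 and 2, where 26.5%, 22.3% and 13.4% of all genes were called. The samples of the lines did not overlap for 2 genes in the first contrast, 5 in the second and 3 in the third, where 17.2%, 12.9% and 8.76% of all genes did not. The plots of levels by sample and of the log2 fold changes show these genes side by side.

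**Figure D1:**
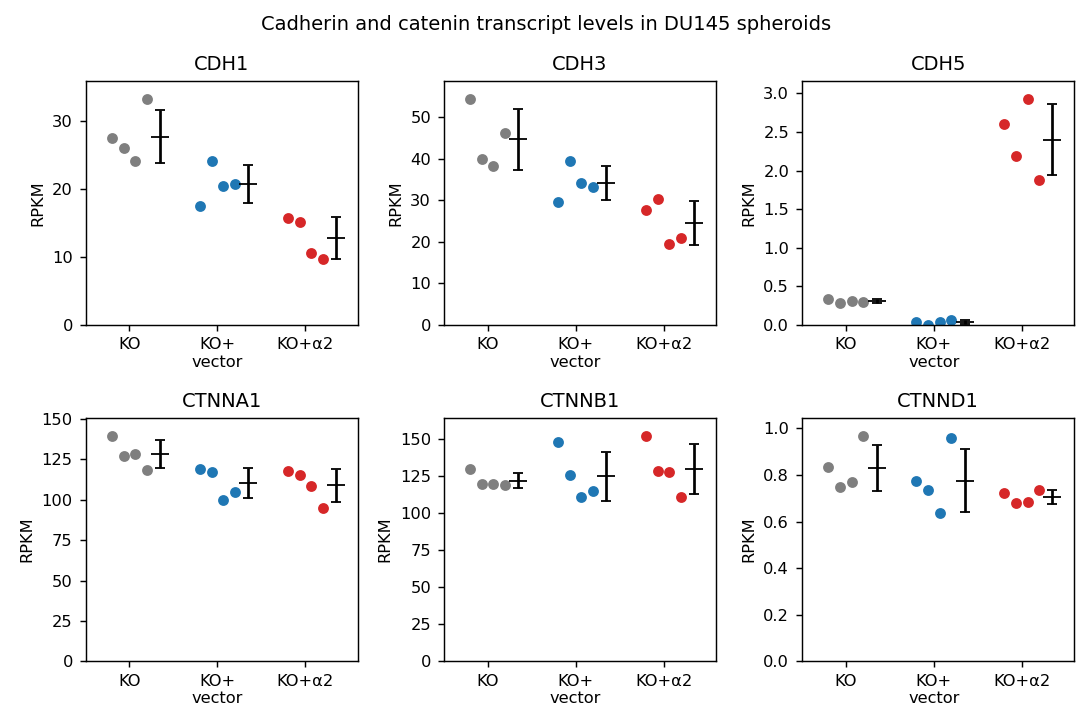
RPKM of the 6 tested genes in each spheroid sample (points, replicates 1 to 4 from left to right) with the mean and SD of each line (n = 4), each panel on its own linear axis from 0. CDH5 lies between 1.88 and 2.93 RPKM in DU145KO+α2 and below 0.34 RPKM in every other sample, while CDH1 and CDH3 are lowest on average in DU145KO+α2 and the catenins differ less.

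**Figure D2:**
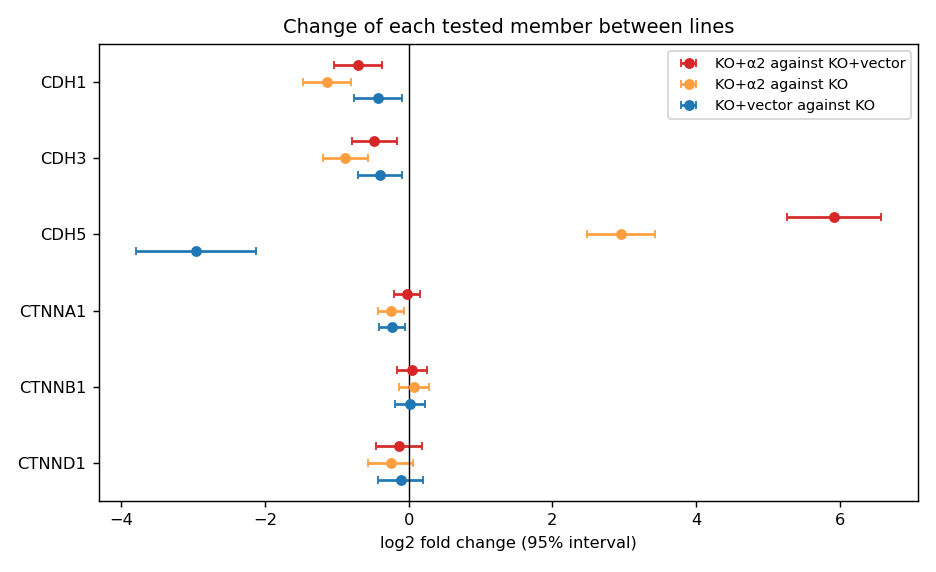
Log2 fold change (x axis) of each tested gene in the 3 contrasts, with 95% intervals from edgeR. The intervals of CDH5 lie away from 0 in all 3 contrasts, those of CDH1 and CDH3 lie below 0, and those of CTNNB1 and CTNND1 include 0.

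E-cadherin (CDH1) was lower in α2 positive spheroids. It was measured at 74.7, 72.8, 51.0 and 46.8 CPM in DU145KO+α2 and at 83.4, 116, 99.4 and 101 CPM in DU145KO+vector. In DU145KO it was measured at 133, 127, 118 and 161 CPM. No α2 positive sample reached the lowest α2 negative one. CDH1 fell by 0.70 on the log2 scale compared to DU145KO+vector (SE 0.16, adjusted p = 0.00981, 1.63-fold lower) and by 1.13 compared to DU145KO (SE 0.16, adjusted p = 0.00054, 2.19-fold lower). DU145KO+vector also lay below DU145KO in every sample, with a log2 fold change of −0.43 (SE 0.15) that was not called (adjusted p = 0.189).

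P-cadherin (CDH3) was the most abundant cadherin per length in 11 of the 12 samples, CDH24 being higher in replicate 3 of DU145KO+α2. It was measured at 117, 129, 83.2 and 89.6 CPM in DU145KO+α2, at 125, 168, 147 and 143 CPM in DU145KO+vector and at 232, 173, 166 and 199.6 CPM in DU145KO. DU145KO+α2 did not overlap DU145KO, but replicate 2 of DU145KO+α2 was above replicate 1 of DU145KO+vector. CDH3 fell by 0.88 on the log2 scale compared to DU145KO (SE 0.14, adjusted p = 0.00174, 1.84-fold lower). Compared to DU145KO+vector the log2 fold change was −0.48 (SE 0.14, adjusted p = 0.0458). This call was lost with the replicate number as a block (−0.49, adjusted p = 0.0669), with DESeq2 size factors (adjusted p = 0.0534), without the filter on low counts (adjusted p = 0.0916) and in 6 of the 8 fits without 1 sample (all but those without DU145KO+α2 replicate 2 or DU145KO+vector replicate 1), where the adjusted p was at most 0.134. DU145KO+vector overlapped DU145KO, with a log2 fold change of −0.40 (adjusted p = 0.186).

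CDH3 and CDH1 are neighbours on chromosome 16 (GRCh38, 68645310 to 68733771 and 68737292 to 68835537, both on the forward strand), 3.52 kb apart, and CDH5 lies on the same chromosome and strand at 66366691 to 66404784. Their log2 CPM values had a Pearson correlation of 0.959 over the 12 samples and of 0.831 after the mean of each line was removed. The corresponding values for CDH5 were −0.599 and −0.224 with CDH1, and −0.529 and −0.289 with CDH3. These correlations are descriptions, since the 12 points share 3 lines and the genes of a sample share its library.

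To set CDH5 against the epithelial cadherins, the ratio of their RPKM values was taken in each sample. In DU145KO CDH5 was at 1.22, 1.07, 1.28 and 0.889% of the CDH1 level, and in DU145KO+vector at 0.233, 0, 0.203 and 0.319%. In DU145KO+α2 it was at 16.6, 14.4, 27.8 and 19.5% of CDH1 and at 9.41, 7.24, 15.1 and 9.06% of CDH3. CDH1 therefore remained above CDH5 in every sample, by 3.60 to 6.93 times in DU145KO+α2. The mean log2 ratio of CDH5 to CDH1, with 0.01 RPKM added to both, was higher in DU145KO+α2 by 6.71 against DU145KO+vector and by 4.06 against DU145KO, and it was lower in DU145KO+vector than in DU145KO (difference −2.64). For CDH5 to CDH3 the differences were 6.48, 3.80 and −2.68. Each of the 6 differences had p = 0.0286 in a two-sided exact permutation test (adjusted p = 0.0286, n = 4 per line), the smallest that 4 samples against 4 allow. Paired by replicate number, each had p = 0.125 by exact sign changes, the smallest that 4 pairs allow, so none was called. The 2 differences between the α2 negative lines depend on the added value, since with 1 RPKM added they were 0.071 (adjusted p = 0.72, exact permutation test) for CDH1 and 0.046 (adjusted p = 0.771) for CDH3. CDH5 itself did not overlap between the lines and changed more than CDH1 or CDH3, so these ratio tests are not separate support for its change.

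The cadherins of mesenchyme and nerve were near or at 0. N-cadherin (CDH2, chromosome 18, 27932879 to 28177130) and the osteoblast and mesenchymal cadherin CDH11 (chromosome 16, 64943753 to 65123744) had no read in any of the 12 samples, which allows up to 0.215 CPM. Retinal cadherin (CDH4, chromosome 20, 61252261 to 61940617) had 1 read in 1 sample, replicate 2 of DU145KO+α2. None of these 3 genes was tested, and their changes between lines were not detectable at this depth.

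Of 18 type I and type II classical cadherins in the table, 5 were tested: CDH1, CDH3 and CDH15 of type I and CDH5 and CDH24 of type II. Another 8 had no read in any sample, and no untested cadherin had more than 9 reads in a sample. CDH24, which binds catenins like other type II cadherins, was measured at 19.1 ± 1.496 RPKM (SD, n = 4) in DU145KO, 22.5 ± 1.11 in DU145KO+vector and 19.4 ± 1.30 in the α2 positive line. CDH24 had log2 fold changes of −0.22 (adjusted p = 0.0754), 0.01 (adjusted p = 0.972) and 0.22 (adjusted p = 0.148) in the contrasts of DU145KO+α2 with DU145KO+vector, of DU145KO+α2 with DU145KO and of DU145KO+vector with DU145KO. CDH15, the muscle cadherin, was at 0.973 ± 0.264, 1.10 ± 0.172 and 1.51 ± 0.0755 RPKM in DU145KO, DU145KO+α2 and DU145KO+vector, and was not called. With the replicate number as a block, the contrasts that involve DU145KO+vector were called for both genes (CDH24 −0.22 with adjusted p = 0.0145 and 0.23 with adjusted p = 0.0234, CDH15 −0.47 with adjusted p = 0.0343 and 0.64 with adjusted p = 0.0132).

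The classical cadherin transcripts summed to 92.8 ± 10.9 RPKM (SD, n = 4) in DU145KO, 78.9 ± 6.57 in DU145KO+vector and 60.2 ± 8.68 in DU145KO+α2. CDH5 made up 4.04 ± 0.9753% of that sum in DU145KO+α2, 0.330 ± 0.0379% in DU145KO and 0.0486 ± 0.0356% in DU145KO+vector. The share of CDH1 was 20.9 ± 2.37% in DU145KO+α2, 26.2 ± 1.43% in DU145KO+vector and 29.8 ± 2.62% in DU145KO. CDH3 held the largest mean share in all 3 lines, between 40.4 and 48.0%. CDH24 held 32.6 ± 4.43% in DU145KO+α2 and 20.7 ± 1.92% in DU145KO, at nearly the same level in RPKM. The shares of one sample add to a whole and are not independent of each other.

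**Figure D3:**
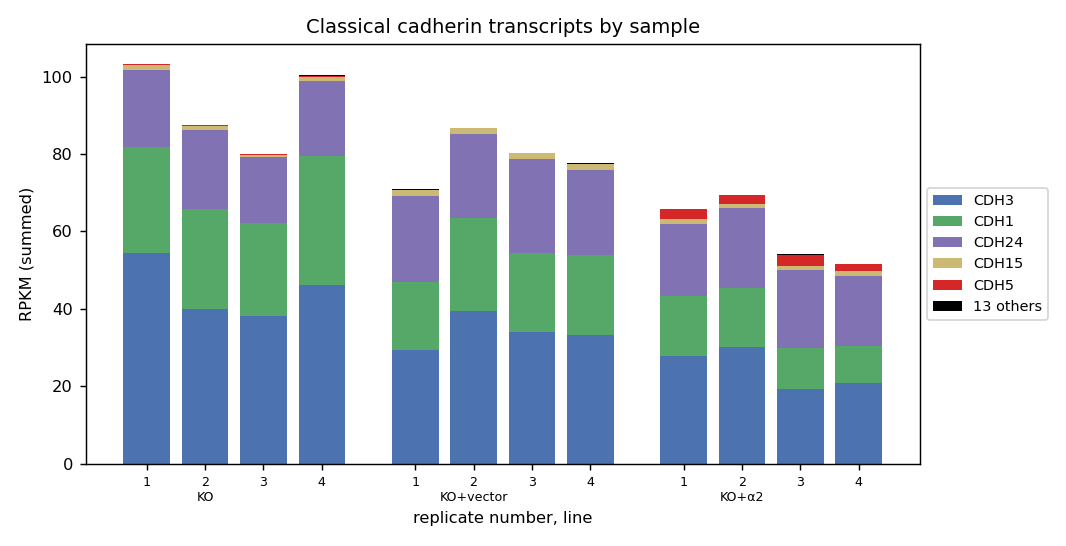
Stacked bars of classical cadherin RPKM (y axis, from 0) in each sample (x axis, replicate and line), with the 5 tested cadherins in colour and the other 13 in black. The summed height is 51.7 to 69.4 RPKM in DU145KO+α2 and 70.8 to 103 RPKM in the α2 negative samples, and CDH5 is visible as a band of 3.15 to 5.41% of the sum in DU145KO+α2.

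α-Catenin (CTNNA1, chromosome 5, 138753425 to 138935034) was measured at 507, 503, 477 and 417 CPM in DU145KO+α2, at 516, 510.4, 440.03 and 462 CPM in DU145KO+vector and at 610, 562, 571 and 520.4 CPM in DU145KO. The 2 transfected lines overlapped each other, and both lay below DU145KO in every sample. CTNNA1 had a log2 fold change of −0.02 (95% interval −0.20 to 0.16, adjusted p = 0.928) between the transfected lines. Compared to DU145KO it was −0.25 (SE 0.085, adjusted p = 0.0877) in DU145KO+α2 and −0.23 (SE 0.085, adjusted p = 0.191) in DU145KO+vector. With the replicate number as a block both were called (adjusted p = 0.00189 and 0.00719), and with library size alone the first was (adjusted p = 0.049).

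β-Catenin (CTNNB1, chromosome 3, 41199505 to 41240443) was measured at 414 to 558 CPM in DU145KO+α2, 415 to 546 CPM in DU145KO+vector and 445 to 482 CPM in DU145KO, and all 3 lines overlapped. Its log2 fold changes were 0.05 (95% interval −0.16 to 0.26), 0.07 (−0.14 to 0.28) and 0.02 (−0.19 to 0.23) in DU145KO+α2 compared to DU145KO+vector, in DU145KO+α2 compared to DU145KO and in DU145KO+vector compared to DU145KO, and none was called. CTNNB1 and CTNNA1 had the highest levels of the 9 genes and their ranges in RPKM overlapped in each line, at 110 to 152 RPKM and 94.8 to 140 RPKM over all samples. Within lines they varied together (Pearson correlation 0.832 after the mean of each line was removed).

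p120 Catenin (CTNND1, chromosome 11, 57761802 to 57819540) had 65 to 106 reads per sample, at 4.08 to 6.21 CPM. Its log2 fold changes were −0.14 (adjusted p = 0.634), −0.25 (adjusted p = 0.366) and −0.11 (adjusted p = 0.797) in the same 3 contrasts. The level of CTNND1 is uncertain, because RefSeq places the read-through gene TMX2-CTNND1 over it (57712523 to 57819180) and that gene was listed at 0 in every sample. Reads in exons that both genes share may not have been counted for either, and the setting for such reads is not given in the sources used here. CDH1, CDH3 and CDH5 shared no exon bases with another gene of the table, and 5.04% of the exon bases of CTNNA1 overlapped LRRTM2 on the other strand, which had at most 3 reads.

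Other proteins of the adherens junction were examined with a list of 23 tested catenins and linkers that includes the 3 catenins above. In DU145KO+α2 compared to DU145KO+vector 1 rose and 2 fell (median log2 fold change −0.04, against −0.01 over all genes tested, where 5.96% were called higher and 5.95% lower). SHROOM3, which recruits actin contractility to junctions, had a log2 fold change of 0.29 (adjusted p = 0.041), a call lost with library size alone and in 7 of the 8 fits without 1 sample. Compared to DU145KO, SHROOM3 had −0.06 (adjusted p = 0.748) in DU145KO+α2 and −0.36 (adjusted p = 0.0465) in DU145KO+vector. The second of these was lost under 9 of its 15 alternatives. CTNNAL1, an α-catenin-like protein, fell by 0.50 on the log2 scale compared to DU145KO+vector (adjusted p = 0.00698). DIAPH1, a formin that nucleates actin, had −0.26 compared to DU145KO+vector (adjusted p = 0.0243, lost in 6 of the 8 fits without 1 sample). It fell by 0.50 compared to DU145KO (adjusted p = 0.00038). Plakoglobin (JUP), which can take the place of β-catenin, had −0.28 (adjusted p = 0.296) and −0.47 (adjusted p = 0.0873) in the 2 contrasts of DU145KO+α2, and with the replicate number as a block both were called (adjusted p = 0.0214 and 0.000877). With the block 3 of the 23 were higher and 6 lower against DU145KO+vector, where 12.9% of all genes were called higher and 13.7% lower.

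Nectins are the other adhesion receptors of adherens junctions, and 4 of 5 were tested. The nectin-like receptor PVR had a log2 fold change of 0.32 in DU145KO+α2 compared to DU145KO+vector (adjusted p = 0.0196, lost in 3 of the 8 fits without 1 sample). The other 3 were not called, where 11.9% of all genes were called. With the block a second nectin, PVRL2, was called higher (0.21, adjusted p = 0.0111), where 26.5% of all genes were called and 12.9% were higher. Compared to DU145KO, PVR had −0.08 (adjusted p = 0.671) in DU145KO+α2 and −0.39 (adjusted p = 0.0199) in DU145KO+vector, the second lost in 5 of the 8 fits. PVRL3 was called higher than in DU145KO in both DU145KO+α2 (0.42, adjusted p = 0.0186) and DU145KO+vector (0.43, adjusted p = 0.0413). These PVRL3 calls were lost in 3 and 7 of the 8 fits. Of all genes 8.17% were called in DU145KO+α2 and 2.34% in DU145KO+vector compared to DU145KO. Among 18 tested genes of cadherin processing and turnover (proteases, phosphatases, kinases), 1 was called against DU145KO+vector, where 11.9% of all genes were called. It was ADAM15, a membrane protease, at −0.33 (adjusted p = 0.0291, lost in 4 of the 8 fits without 1 sample). With the block 2 of the 18 were called, both lower, where 26.5% of all genes were called and 13.7% were lower. The median log2 fold change of these 18 genes was −0.02. ADAM10, which sheds the outer part of E-cadherin and VE-cadherin, had 0.14 (adjusted p = 0.291), and PTPRB, the endothelial phosphatase that associates with VE-cadherin, had −0.45 (adjusted p = 0.435).

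Transcriptional repressors of CDH1 and regulators of epithelial identity were described from a list of 18 genes, 13 of them tested. In DU145KO+α2 compared to DU145KO+vector 1 of the 13 was called, and it rose (median log2 fold change of the list −0.13), where 11.9% of all genes were called. That gene was TWIST2, a basic helix-loop-helix repressor, measured at 13.6 ± 1.09 CPM (SD, n = 4) in DU145KO+α2, 9.49 ± 1.803 in DU145KO+vector and 9.87 ± 0.639 in DU145KO (log2 fold changes 0.52 with adjusted p = 0.0132 and 0.47 with adjusted p = 0.0335). The first call was lost without DU145KO+vector replicate 3 (adjusted p = 0.0518) and the second in 6 of the 8 fits without 1 sample (adjusted p at most 0.0943). The zinc finger repressors SNAI1 (−0.15, adjusted p = 0.726), SNAI2 (−0.14, adjusted p = 0.858), ZEB1 (0.16, adjusted p = 0.641) and ZEB2 (−0.54, adjusted p = 0.357) were not called in that contrast, and TWIST1 had no read. With the block 1 of the 13 was higher and 1 lower in that contrast, where 12.9% of all genes were called higher and 13.7% lower.

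Larger differences in this list separated both transfected lines from DU145KO. ESRP1, a splicing factor of epithelial cells, was measured at 5.21 ± 0.965 CPM in DU145KO, 0.649 ± 0.186 in DU145KO+vector and 0.409 ± 0.110 in DU145KO+α2. ESRP1 had 67 to 101 reads per sample in DU145KO and at most 14 in the transfected lines. It passed the filter on low counts only with the DU145KO samples, which limits its test. It fell by 3.65 on the log2 scale in DU145KO+α2 (adjusted p = 6.57e-07) and by 3.00 in DU145KO+vector (adjusted p = 1.21e-05) compared to DU145KO. OVOL2, a repressor of ZEB1 that maintains the epithelial state, was at 1.16 ± 0.057 CPM in DU145KO, 0.345 ± 0.180 in DU145KO+vector and 0.283 ± 0.110 in DU145KO+α2. It had 17 to 20 reads per sample in DU145KO and at most 9 in the transfected lines. It therefore passed the filter on low counts through DU145KO alone, which limits its test. Compared to DU145KO it fell by 1.97 (adjusted p = 0.00231) in DU145KO+α2 and by 1.72 (adjusted p = 0.0146) in DU145KO+vector. The second call was lost without DU145KO+vector replicate 2 (adjusted p = 0.0566). The epithelial factor ELF3 fell by 0.40 in DU145KO+α2 (adjusted p = 0.00386) and had −0.34 in DU145KO+vector (adjusted p = 0.0308, lost in 6 of the 8 fits without 1 sample and in the fit of those 2 lines alone). Compared to DU145KO, 1 of the 13 was higher and 3 lower, ESRP1 and OVOL2 among them, in each of the 2 transfected lines. Of all genes 3.09% and 0.496% were called higher and 5.08% and 1.84% lower. With the block 3 were higher and 5 lower in DU145KO+α2, and 2 higher and 3 lower in DU145KO+vector, where 22.3% and 13.4% of all genes were called in either direction. ZEB2 was the higher one in DU145KO+vector (log2 fold change 1.58, adjusted p = 0.0382), a call lost with voom and limma and in 4 of the 8 fits without 1 sample. Compared to DU145KO, ZEB1 had 0.43 (adjusted p = 0.163) in DU145KO+α2 and 0.27 (adjusted p = 0.522) in DU145KO+vector. Both were called with the block (adjusted p = 0.000438 and 0.0266). In DU145KO+α2 the block also called ZEB2 higher (1.05, adjusted p = 0.0279, against 0.122 without it). It called ESRP2 and KLF4 lower there (adjusted p = 0.00769 and 0.0257, against 0.108 and 0.0794 without it).

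**Figure D4:**
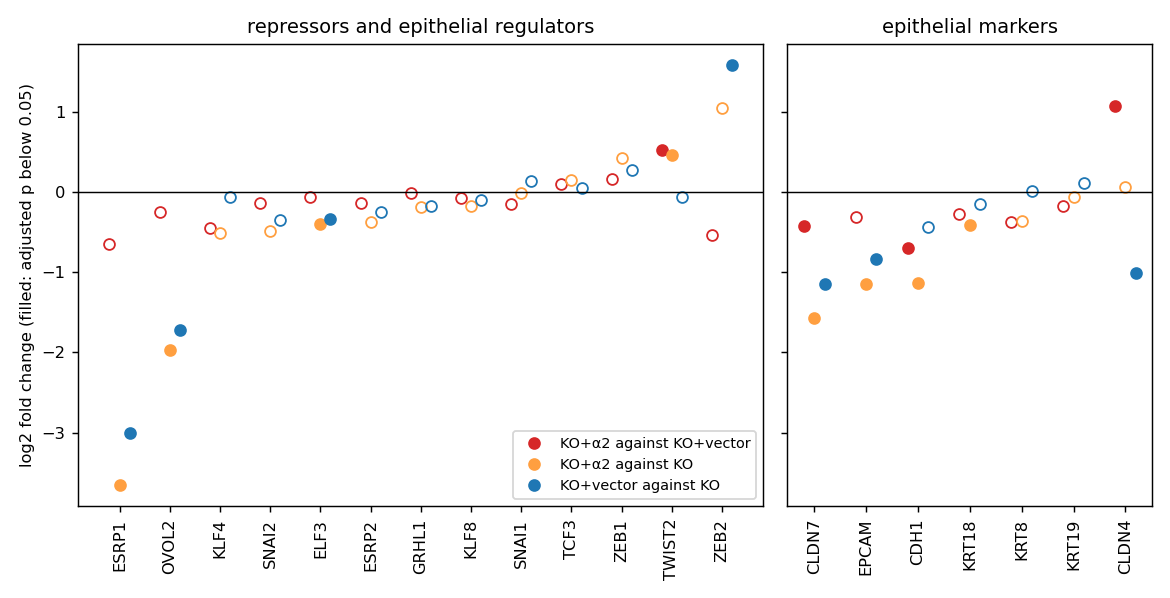
Log2 fold changes (y axis) of the tested repressors and epithelial regulators (left) and of 7 epithelial markers (right) in the 3 contrasts, filled where the adjusted p was below 0.05. ESRP1 and OVOL2 are lower in both transfected lines than in DU145KO, with log2 fold changes of −3.65 and −3.00 for ESRP1 and −1.97 and −1.72 for OVOL2, while the contrast of DU145KO+α2 with DU145KO+vector has filled points at TWIST2, CLDN4, CLDN7 and CDH1. OVOL2 had at most 9 reads and ESRP1 at most 14 in any sample of the transfected lines.

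Of the 7 epithelial markers, which include CDH1, 1 was higher and 2 lower in α2 positive spheroids compared to DU145KO+vector, and 4 were called compared to DU145KO, all lower. Of all genes 5.96% were called higher and 5.95% lower in the first contrast, and 5.08% lower in the second. With the block 1 was higher and 4 lower in the first, and 5 were called in the second, all lower, where 26.5% and 22.3% of all genes were called. The adhesion molecule EPCAM was measured at 72.1 ± 12.7 CPM in DU145KO+α2, 89.4 ± 5.16 in DU145KO+vector and 159 ± 19.5 in DU145KO. EPCAM fell by 1.14 on the log2 scale in DU145KO+α2 (adjusted p = 1.86e-05) and by 0.83 in DU145KO+vector (adjusted p = 0.00093) compared to DU145KO, with −0.31 between the transfected lines (adjusted p = 0.0917). The tight junction claudin CLDN7 followed that order at 27.5 ± 1.67, 12.4 ± 1.72 and 9.25 ± 1.70 CPM in DU145KO, DU145KO+vector and DU145KO+α2. CLDN4, another claudin, was at 174 ± 18.7 CPM in DU145KO+α2, 82.8 ± 20.4 in DU145KO+vector and 167 ± 38.2 in DU145KO. CLDN4 was higher in DU145KO+α2 than in DU145KO+vector (log2 fold change 1.07, adjusted p = 0.00279) and not called against DU145KO (0.06, adjusted p = 0.905). In DU145KO+vector compared to DU145KO it had −1.01 (adjusted p = 0.0146). That call was lost without DU145KO+vector replicate 4 and in the fit of those 2 lines alone. The call of CLDN7 between the transfected lines (−0.42, adjusted p = 0.0486) was lost under 10 of its 15 alternatives, among them voom with limma. KRT18, a keratin, was 1 of the 4 called lower in DU145KO+α2 than in DU145KO (−0.42, adjusted p = 0.0434). That call was lost under 9 of its 15 alternatives, among them DESeq2 size factors.

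Since VE-cadherin belongs to endothelium, 30 endothelial genes other than CDH5 were listed. Of these 8 were tested, 22 had too few reads (at most 14 in any sample) and 3 of the 22 had none. VWF and ROBO4 had at most 4 reads in any sample, TEK and EMCN at most 3, ERG and CD34 at most 2, TIE1 at most 1 and CLDN5 at most 6. FLT1, with at most 14 reads, was at 0.559 to 0.700 CPM in DU145KO+α2, and at most 0.307 in DU145KO and 0.359 in DU145KO+vector. ICAM2, with at most 12 reads, went the other way. It was at 0.122 to 0.794 CPM in DU145KO, and at most 0.0591 in DU145KO+α2 and 0.215 in DU145KO+vector. Neither gene was tested. In DU145KO+α2 compared to DU145KO+vector 3 of the 8 rose and 1 fell (median log2 fold change 0.22), and compared to DU145KO 1 rose and 1 fell (median 0.01). Of all genes, 5.96% were called higher and 5.95% lower in the first contrast, and 3.09% and 5.08% in the second. The VEGF receptor KDR was measured at 2.26 ± 0.556 CPM in DU145KO+α2, 1.03 ± 0.336 in DU145KO+vector and 2.17 ± 0.642 in DU145KO, so that it was called against DU145KO+vector (log2 fold change 1.14, adjusted p = 0.0183) and had 0.05 (adjusted p = 0.943) against DU145KO. The transcription factor SOX17 was at 1.74 ± 0.470, 0.836 ± 0.340 and 0.566 ± 0.152 CPM in the same order of lines (1.03, adjusted p = 0.0329, and 1.61, adjusted p = 0.00443). ENG, a TGF-β coreceptor, had 1.11 (adjusted p = 0.0371) compared to DU145KO+vector and 0.33 (adjusted p = 0.603) compared to DU145KO.

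The call of KDR against DU145KO+vector was lost in 2, and those of SOX17 and ENG each in 5, of the 8 fits without 1 sample. EGFL7, a secreted endothelial protein that took most of the list's reads, fell by 0.68 compared to DU145KO+vector (adjusted p = 0.000594) and by 0.60 compared to DU145KO (adjusted p = 0.00196). The summed level of the 30 genes was 36.1 to 41.2 CPM in DU145KO+α2, 43.8 to 57.7 in DU145KO+vector and 45.3 to 55.4 in DU145KO, a sum that was mostly EGFL7. A narrower list of 10 endothelial markers, without EGFL7, summed to 2.80 to 4.10 CPM in DU145KO+α2, 1.32 to 2.66 in DU145KO+vector and 3.12 to 3.98 in DU145KO. On that list the sum in DU145KO+α2 lay above that in DU145KO+vector without overlap and overlapped DU145KO. KDR had the highest mean of these markers in each line. PECAM1, an endothelial junction protein, was at 0.70 CPM on average in DU145KO+α2, 0.77 in DU145KO+vector and 0.88 in DU145KO. It was not called against DU145KO+vector (−0.17, adjusted p = 0.836). The other 8 markers had at most 6 reads in any sample and were not tested. The part of other cell types in the CDH5 level was not tested beyond these values.

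Fibroblast and leukocyte markers were also counted in the 3 lines. The 7 fibroblast markers summed to 9.02 to 12.8 CPM over all samples, and 2 were tested. PDGFRB was called in DU145KO+α2 against DU145KO+vector (−1.47, adjusted p = 0.0322) and against DU145KO (−1.48, adjusted p = 0.0396). Of all genes 11.9% and 8.17% were called in these contrasts. The PDGFRB calls were lost under 7 and 8 of 14 alternatives. PDGFRB had at most 12 reads in any sample and at most 6 in DU145KO+α2. It passed the filter on low counts through the α2 negative lines alone, which limits its test. The 6 leukocyte markers summed to 3.68 to 5.99 CPM, and none of the 3 tested was called by edgeR in any contrast, the lowest adjusted p being 0.373.

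β-Catenin also drives Wnt target genes, of which 15 were listed and 13 tested. Against DU145KO+vector 1 was called in DU145KO+α2 (median log2 fold change of the list 0.24), where 11.9% of all genes were called. It was ZNRF3, a membrane ligase that removes Wnt receptors, with 0.42 (adjusted p = 0.00989). AXIN2, a general feedback target, had 0.62 (adjusted p = 0.109). With the block 3 of the 13 were called, all higher, among them AXIN2 (adjusted p = 0.0385), where 26.5% of all genes were called and 12.9% were higher. Compared to DU145KO 1 of the 13 was higher and 2 lower in DU145KO+α2, where 3.09% of all genes were called higher and 5.08% lower. The higher one was DKK1 (0.58, adjusted p = 0.034, lost in 5 of the 8 fits without 1 sample). In DU145KO+vector 2 were called, both lower, where 1.84% of all genes were called lower. RNF43, a ligase related to ZNRF3, fell compared to DU145KO in DU145KO+α2 by 1.16 (adjusted p = 0.000139) and in DU145KO+vector by 1.21 (adjusted p = 0.000365). NKD1, a feedback inhibitor, had −0.69 (adjusted p = 0.0203) and −0.93 (adjusted p = 0.00976). The call of NKD1 in DU145KO+α2 was lost without DU145KO replicate 2 or DU145KO+α2 replicate 1 (adjusted p at most 0.0654).

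The genes around CDH5 were examined for change in the same contrasts. Of 15 other genes in the table within 500 kb, 10 were tested. Their median log2 fold change in DU145KO+α2 was −0.02 compared to DU145KO+vector and 0.03 compared to DU145KO. The same 1 gene of the 10 was called in these contrasts, where 11.9% and 8.17% of all genes were called. That gene was BEAN1, a membrane protein gene that begins 22.5 kb beyond the end of CDH5 (chromosome 16, 66427295 to 66495288). BEAN1 was measured at 20.1, 20.1, 20.7 and 30.5 CPM in DU145KO+α2, at 9.58, 6.39, 5.52 and 7.02 CPM in DU145KO+vector and at 14.4, 10.9, 8.60 and 11 CPM in DU145KO. The lowest α2 positive value was above the highest α2 negative one, and 1 DU145KO+vector sample was above the lowest DU145KO sample. BEAN1 rose by a log2 fold change of 1.67 (SE 0.20, adjusted p = 8.83e-05) compared to DU145KO+vector and of 1.02 (SE 0.19, adjusted p = 0.0031) compared to DU145KO. In DU145KO+vector compared to DU145KO it had −0.65 (adjusted p = 0.112), and with the replicate number as a block that difference was called (adjusted p = 0.0168).

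LINC00920, which lies between CDH5 and BEAN1 by midpoint, had −0.31 (adjusted p = 0.373) and 0.08 (adjusted p = 0.881) in the 2 contrasts of DU145KO+α2. The other 8 tested genes of the window had log2 fold changes between −0.13 and 0.15 compared to DU145KO+vector. With the block CMTM4 was also called (0.15, adjusted p = 0.0251, and −0.19, adjusted p = 0.0062, in the 2 contrasts), and so was CMTM3 compared to DU145KO (0.40, adjusted p = 0.00223). On the whole of chromosome 16, 647 other genes were tested and their median log2 fold change was −0.02 compared to DU145KO+vector and 0.00 compared to DU145KO. Around CDH1 and CDH3, a window chosen after the values of CDH5 were seen, 15 other genes were tested. There 1 was called compared to DU145KO+vector (PLA2G15, a lysosomal phospholipase, log2 fold change −0.42, adjusted p = 0.011) and 1 compared to DU145KO (HAS3, a hyaluronan synthase, 0.73, adjusted p = 0.00659). Of all genes 11.9% and 8.17% were called in these contrasts. The median log2 fold change of these 15 genes was −0.02 and 0.06. With the block HAS3 (adjusted p = 0.000103) and SNTB2 (adjusted p = 0.024) were also called higher compared to DU145KO+vector, and ESRP2 lower compared to DU145KO (adjusted p = 0.00769).

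**Figure D5:**
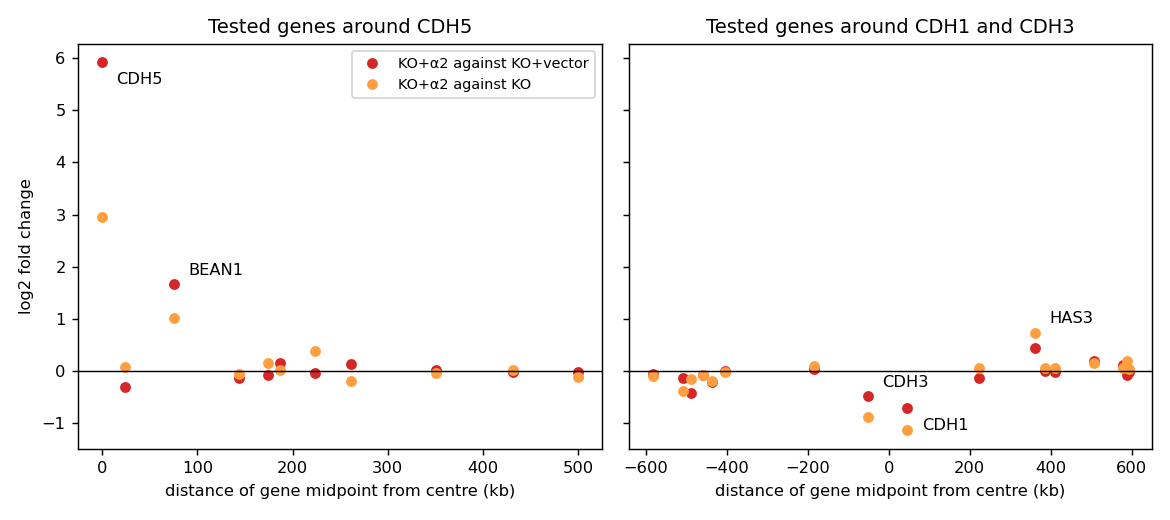
Log2 fold change (y axis) of tested genes against the distance of their midpoint (x axis, kb) from the midpoint of CDH5 (left) or of the stretch from CDH3 to CDH1 (right), in the 2 contrasts of DU145KO+α2. CDH5 and BEAN1 stand above the other genes on the left, whose values compared to DU145KO+vector lie between −0.31 and 0.15, and CDH1 and CDH3 lie below 0 on the right.

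The genes whose pattern over the 12 samples was most like that of CDH5 were named by Pearson correlation of log2 CPM among genes with a mean log2 CPM of at least 1. They were TMEM150C (r = 0.962), USP12 (0.962), DDHD2 (0.960), SCARA5 (0.959) and SEMA3B (0.956). All 5 had the order DU145KO+α2, DU145KO, DU145KO+vector in their mean CPM. SCARA5, a scavenger receptor, was at 16 ± 1.68, 3.13 ± 1.30 and 1.11 ± 0.749 CPM in that order, and TMEM150C at 13.7 ± 1.84, 8.09 ± 0.635 and 5.56 ± 0.520. USP12, a deubiquitinase, had log2 fold changes of 0.50 compared to DU145KO+vector and 0.23 compared to DU145KO, smaller than those of CDH5, since a correlation does not measure the size of a change. The correlations are over samples that share 3 lines and carry no test.

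The 4 replicates of a line share its transfection and selection, and the methods of the study call them independent biological replicates, without saying in the sources used here how they were kept apart, so p-values measure the spread between these samples. Changes that go with the α2 cDNA and changes that go with the history of a line cannot be told apart with DU145KO+α2, DU145KO+vector and DU145KO alone.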

How the data were processed

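RNA from 12 spheroid samples, 4 replicates of each of 3 lines, was sequenced on an Illumina HiSeq from stranded mRNA libraries with single-end reads. The authors called bases with bcl2fastq 1.8.4, aligned to hg38 with TopHat2 2.1.0, kept uniquely aligned reads and counted them on genes with Subread 1.5.0; use of strand is not given in the sources used here. The authors deposited these counts without normalization, and the tests used them. The authors also deposited RPKM values made after TMM normalization, used for levels between genes. Every pair of replicates within a line differed by more than sampling noise (18 pairs, chi-square per degree of freedom 7.19 to 25.1), and none was counted as a duplicate.

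Counts were tested in R 4.3.3 with edgeR 4.0.16 (TMM, filterByExpr with a minimum count of 10, robust quasi-likelihood fit, a factor for the line, all 12 samples, 14732 genes). The scripts were tested on simulated data. DESeq2 1.42.0 and limma 3.58.1 served the alternatives, with DESeq2 size factors, library size alone, no filter, the compared lines alone, a fold change above 2 besides the adjusted p (the methods of the study name a fold change above 2), a block for the replicate number, and each sample omitted once. The alternatives for single genes of the lists were added after the data were seen. Same-numbered samples of different lines deviated from their line means together (12 pairs, r 0.135 to 0.554, mean 0.378, against −0.126 for different numbers), so the numbers were taken to pair the samples. Block values stand beside many, but not all, of the results whose call they change. Positions are from RefSeq and exons from GENCODE v44, both on GRCh38.

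The members, gene lists and tests were chosen with earlier results of these data known. Besides the 9 genes and ITGA2, the text names from each list the called genes with the largest change in DU145KO+α2 compared to DU145KO+vector (up to 2 in each direction), genes whose absence matters, tested cadherins, epithelial regulators, tested genes within 500 kb of CDH5 and the 5 genes most like it. HAS3, PLA2G15, SNTB2, ESRP2, and list genes named for other contrasts or for values that were not called, were chosen after their values were seen. Antibody, migration and quantitative PCR experiments were not analysed here, and some prostate lineage markers are not reported here.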

Additional observations from a re-analysis of the deposited data

Results flagged for a closer look

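In replicate 2 of DU145KO+α2, CDH4 had 1 read while the other 3 replicates of the line had 0, so that its gap to the others was the whole range of the group (a ratio of 1.0). The read is below the 3 reads that a count of 0 allows. Among the 19 groups of 4 samples examined for a sample apart from the rest, this was the only one found, and chance gives about 0.95.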

How the results depend on the processing

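The directions of CDH1, CDH3 and CDH5 were the same under every alternative, and the calls of CDH5 and CDH1 were kept under all of them, except that of CDH1 against DU145KO+vector when a fold change above 2 was required. The counts of called genes were 1754 (DU145KO+α2 against DU145KO+vector), 1203 (DU145KO+α2 against DU145KO) and 344 (DU145KO+vector against DU145KO). They became 325, 309 and 123 with a fold change above 2, which left 1 of the 9 genes called in the first contrast, CDH5. With the replicate number as a block they became 3911, 3286 and 1980, with 2 of the 9 genes called in the third contrast, CDH5 and CTNNA1; apart from CDH3, CTNNA1 and the genes named in the text the block changed no call among the 9 genes. The DESeq2 Wald test called 587 genes in the third contrast, and leaving out 1 sample gave 160 to 528, with the highest count without DU145KO replicate 4 and the lowest without DU145KO+vector replicate 3. Of 46 calls of list genes, BEAN1 and HAS3, 22 were kept under every alternative, 24 were lost under at least 1, and none changed direction.

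For the log2 ratios, pairing by replicate number gave the same differences for CDH5 to CDH1 (6.71, 4.06 and −2.64) and CDH5 to CDH3 (6.48, 3.80 and −2.68), each with p = 0.125 by exact sign changes, the smallest that 4 pairs allow. Without 1 sample the differences for CDH1 were 5.99 to 7.04, 3.88 to 4.19 and −2.98 to −1.93, and for CDH3 5.77 to 6.83, 3.59 to 3.95 and −3.03 to −1.97, each with adjusted p = 0.0571, the smallest that exact permutation of 3 samples against 4 allows. With 1 RPKM added, the differences between the α2 negative lines reversed to 0.071 and 0.046, since that value is above the CDH5 level in both lines. Depth limits CDH5 in DU145KO+vector, where it rests on 10 reads.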
